A study of Mus musculus with 8 samples.

Results

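The genes described here are 8 CC chemokine genes (Ccl2, Ccl5, Ccl7, Ccl8, Ccl9, Ccl12, Ccl20 and Ccl25) and the receptor gene Ccrl2, 9 of the 24015 genes counted. They were chosen by symbol with earlier results of these data known, and all 9 symbols were found in every RNA-seq table. The cells were wild type murine embryonic fibroblasts (MEFs), connective tissue cells cultured from embryos at E12.5, on a C57bl/6 background and at passages 15 to 18. The 2 untreated libraries were compared with 2 libraries from cells given mouse recombinant interferon-beta (IFN-beta, 100 units/mL) for 6 h. The labels do not say whether replicates were separate cultures, so p-values measure the spread between these libraries only, which may be technical. In the same series, HA-tagged H3.3 chromatin samples and their inputs were not analysed here.

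CC chemokines are small secreted proteins that carry adjacent cysteines and guide leukocytes along gradients through G protein-coupled CC receptors. The monocyte chemoattractants Ccl2, Ccl7, Ccl8 and Ccl12 lie in the same cluster on mouse chromosome 11. Stromal cells such as fibroblasts can release Ccl2 to draw monocytes out of the blood. Atypical receptors bind chemokines or related ligands without the usual G protein signal. Ccrl2 belongs with them, and it holds the chemoattractant chemerin at the cell surface.

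The libraries held 18528685 and 24817342 gene counts untreated and 18901845 and 20714161 after IFN-beta. All 12 fibroblast markers were tested and none was called in either direction by edgeR. At an unadjusted p below 0.05 there were 2 on the higher side and 1 on the lower side. Of all 12128 tested genes, 2202 had an unadjusted p below 0.05 in either direction. Vim was at 2312 ± 40.5 and 2870 ± 26.0 CPM (read counts scaled to library size; mean ± SD, n = 2) and S100a4 at 3440 ± 680 and 2673 ± 396 CPM, untreated and treated. Macrophages also make CC chemokines, and the 13 macrophage markers in the tables summed to 25.9 and 20.1 CPM untreated and 25.2 and 19.05 CPM after IFN-beta. None of the 7 tested macrophage markers was called (1 had an unadjusted p below 0.05, on the higher side), with log2 fold changes of 0.03 for Cd14, 0.11 for Csf1r, 0.82 for Cd68 (adjusted p = 0.274) and -1.08 for Lyz2 (adjusted p = 0.349). Fcgr1, too low to test, had 0 reads in both untreated libraries and 17 and 7 after IFN-beta. The part of these markers in the results was not tested. None of the 13 was at 0 in all libraries, though Aif1 had a single read in all. Lymphocyte and dendritic markers were nearly absent, with 6 of 10 at 0 in every library, and Zbtb46, the 1 that was tested, was not called (-1.14, adjusted p = 0.318). Epithelial markers were all too low to test.

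IFN-beta raised the 4 monocyte chemoattractant genes and Ccrl2, while the other CC genes gave no call. Of the 9 genes, 5 were higher (quasi-likelihood test in edgeR, called at a p below 0.05 after Benjamini-Hochberg adjustment over 12128 tested genes), where 4.73% of all tested genes were higher. No member was lower, against 0.495% of all tested genes. The count of lower members at an unadjusted p below 0.05 was also 0, and it was 0 by DESeq2 and limma-voom. Ccl9 and Ccl25 were tested and not called, and Ccl5 and Ccl20 had too few reads for the test. Ccl8, Ccl12 and Ccrl2 passed the filter on low counts through their IFN-beta libraries alone, so the share of called genes among those tested carries no weight. Without that filter all 9 were tested and 5 were higher and 0 lower, where 5.16% and 2.28% of 16734 genes were. Since the members were chosen with earlier results of these data known, these shares are a description and not a test. The median log2 ratio of pooled, depth-scaled counts over the 9 genes was 1.78, beside a median log2 fold change of -0.02 over all tested genes. In bulk RNA a change in the share of cells that make a transcript and a change in the amount per cell cannot be told apart.

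**Figure D1:**
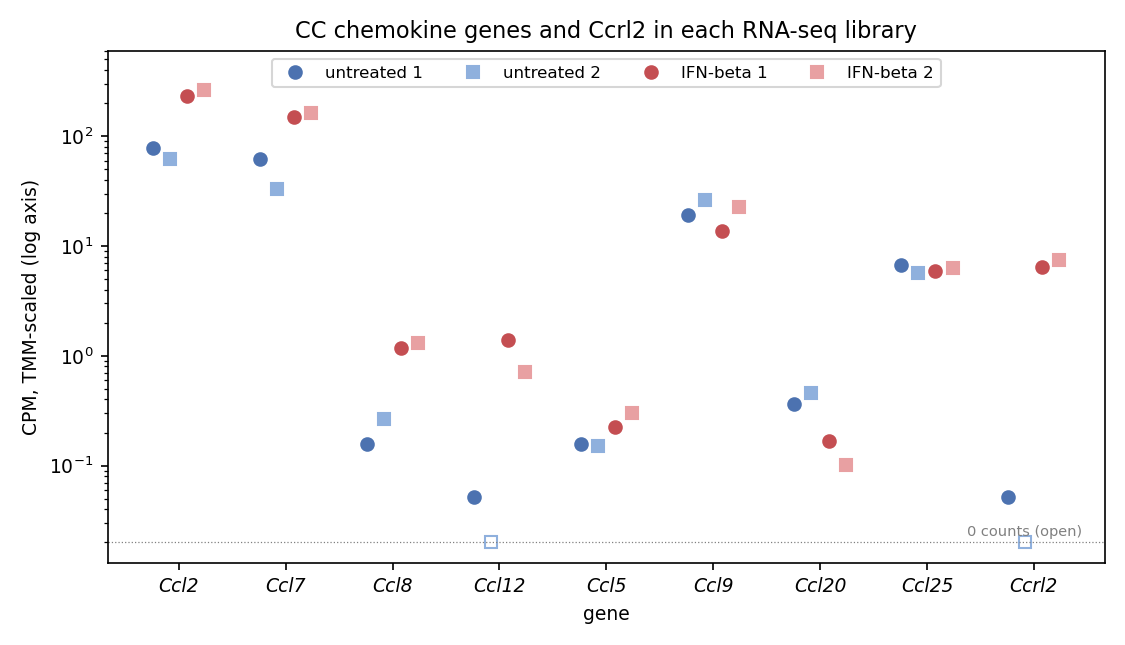
Level of each gene in each library, in CPM with TMM scaling on a log axis; circles are replicate 1 and squares replicate 2, blue untreated and red IFN-beta, and open symbols on the dotted line are 0 counts. Ccl2 and Ccl7 are separated between the groups at high levels, Ccl8, Ccl12 and Ccrl2 start close to 0, and the groups overlap for Ccl9 and Ccl25.

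Ccl2 (MCP-1), the main ligand that recruits Ccr2-bearing monocytes, was at 77.4 and 62.0 CPM in the untreated libraries and at 235 and 265 CPM after IFN-beta. Both treated libraries lay well above both untreated ones. The mean went from 69.7 ± 10.9 to 249.9 ± 21.4 CPM (SD, n = 2), a log2 fold change of 1.84 ± 0.15 (SE; 95% interval 1.51 to 2.17; edgeR adjusted p = 2.1e-05), or 3.59-fold. Ccl7 (MCP-3), its direct neighbour, was at 61.6 and 33.3 CPM untreated and at 149 and 161 CPM treated. Here the untreated libraries differed from each other by more than the treated ones did, and the groups still did not overlap. The mean went from 47.5 ± 20.02 to 155 ± 8.40 CPM, a log2 fold change of 1.71 ± 0.24 (95% interval 1.18 to 2.25; adjusted p = 0.0015), or 3.28-fold. The ratio of Ccl2 to Ccl7 read counts was 1.26 and 1.86 untreated and 1.57 and 1.64 after IFN-beta, so the treated ratios fell between the untreated ones. By size of the log2 fold change, Ccl2 stood 263rd and Ccl7 285th from the top of all tested genes.

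Ccl8 (MCP-2), which in the mouse acts through Ccr8, had 3 and 7 reads untreated and 21 and 26 reads after IFN-beta. It rose from 0.211 ± 0.0774 to 1.24 ± 0.0941 CPM, a log2 fold change of 2.48 ± 0.47 (95% interval 1.44 to 3.53; edgeR adjusted p = 0.0108). Its treated level thus remained low. Ccl12 (MCP-5), another Ccr2 ligand, had 1 and 0 reads untreated and 25 and 14 reads treated. The count of 0 in untreated replicate 2 allows a level of up to 0.114 CPM (3 counts). With 1 pooled untreated read, the ratio of depth-scaled counts was 47.2 (95% exact interval 7.99 to 1911, counting error only). Ccl12 was called higher (adjusted p = 0.0056, higher in both treated libraries), but its fitted log2 fold change of 5.23 depends on the prior count and was 3.27 with a larger one. It was 7.49 without untreated replicate 1, which holds the only untreated read, and 4.16 without untreated replicate 2. The IFN-beta libraries of all 4 monocyte chemoattractant genes lay above the untreated ones, as they did for 23.9% of all tested genes.

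**Figure D2:**
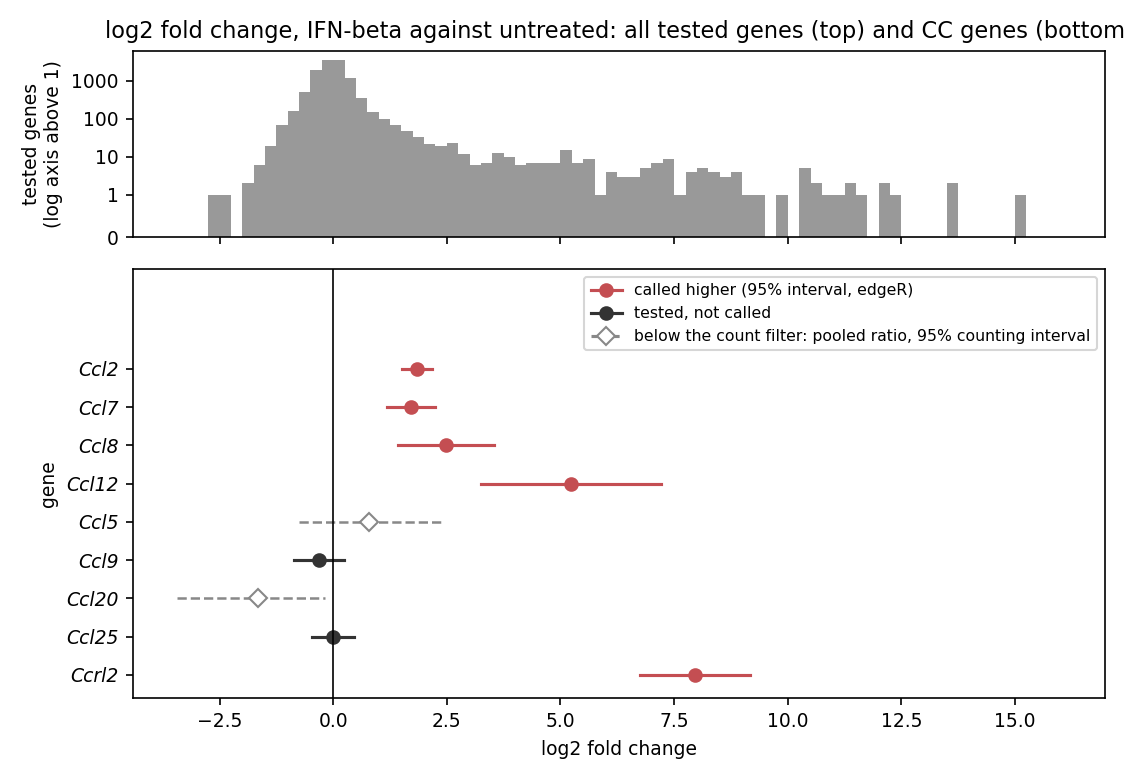
Top, number of tested genes per log2 fold change bin of 0.25 (IFN-beta against untreated); bottom, log2 fold change of each CC gene with its 95% interval, red where called higher, black where tested and not called, grey diamonds for the pooled ratio of genes below the count filter. Ccrl2 lies at 7.96 and Ccl2 and Ccl7 near 1.8, while the intervals of Ccl9 and Ccl25 include 0. For Ccrl2 and Ccl12, with 1 pooled untreated read each, the values and intervals depend on the prior count.

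The promoters of Ccl12 and Ccl8 are shown because both genes rose, and that of Ccl9 because it lies in the other chemokine cluster and gave no call. Sequences are the 250 bases before the start site, from RefSeq (GRCm38.p6, whereas the read counts used mm9), written 5′ to 3′ on the gene's strand. Capitals mark every match, on either strand, to the motifs searched. Of the 9 genes, 6 had windows in the RefSeq table (9 windows with alternative starts), and windows of Ccl2, Ccl5 and Ccl7 were not used here.
Ccl12, chr11:82101595-82101844, plus strand: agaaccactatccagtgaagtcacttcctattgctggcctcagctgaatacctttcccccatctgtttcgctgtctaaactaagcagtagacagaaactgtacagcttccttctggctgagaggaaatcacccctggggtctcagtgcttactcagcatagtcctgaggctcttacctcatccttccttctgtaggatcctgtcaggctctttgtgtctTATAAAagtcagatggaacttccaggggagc
Ccl8, chr11:82114935-82115184, plus strand: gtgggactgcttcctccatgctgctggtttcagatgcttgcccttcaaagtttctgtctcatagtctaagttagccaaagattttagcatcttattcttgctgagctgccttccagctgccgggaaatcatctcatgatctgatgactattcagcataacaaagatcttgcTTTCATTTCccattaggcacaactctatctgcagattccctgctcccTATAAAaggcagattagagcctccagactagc
Ccl9, chr11:83578637-83578886, minus strand: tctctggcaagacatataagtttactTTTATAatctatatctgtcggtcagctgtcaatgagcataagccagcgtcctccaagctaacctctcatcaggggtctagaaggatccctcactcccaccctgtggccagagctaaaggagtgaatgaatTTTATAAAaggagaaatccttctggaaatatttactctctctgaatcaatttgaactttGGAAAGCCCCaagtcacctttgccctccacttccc

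Motifs were searched in windows of 300 bases, from 250 before to 50 after each start. The core of the interferon-stimulated response element, GAAANNGAAA, had 0 matches in the 9 windows and matched 3.44% of all 32841 RefSeq windows. A pair of GAAA with a shorter spacer, GAAANGAAA, was present on the opposite strand in Ccl8 (TTTCATTTC, positions -79 to -71 from the start) and in Ccl12 (positions 29 to 37, in tctagcTTTCATTTCgaagtc), and in 3.17% of all windows. That pair was searched after these sequences had been seen. TATAAA lay at -32 to -27 in Ccl8 and at -31 to -26 in Ccl12, and it also occurred in Ccl9, in 1 of 2 Ccl25 windows and in 13.6% of all windows. The NF-kB motif matched in Ccl9 (-35 to -26), in Ccl20 and in 1 of 3 Ccrl2 windows, beside 4.51% of all windows. The STAT motif TTCNNNGAA matched none of the 9 windows and 8.30% of all. Apart from TATAAA, which overlapped its own match in Ccl9, no matches overlapped. A match here is a description of letters only.

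In chromosomal order the Ccl2 cluster reads Ccl2, Ccl7, Ccl11, Ccl12, Ccl8 and Ccl1, and the genes inside it differed in level and in response. Ccl11 (eotaxin-1, an attractant of eosinophils) had 0 and 0 reads untreated and 0 and 2 treated, although it lies between Ccl7 and Ccl12. Ccl1, at the far end, had a single read in all libraries, in untreated replicate 2. The flanking genes counted, 5530401A14Rik and Tmem132e, had 0 reads in all 4 libraries. Of the 6 cluster genes 4 were called higher, where 4.73% of all tested genes were, and the other 2 were too low to test. Ccl8 and Ccl12 passed the count filter through their IFN-beta libraries alone, so the share called among tested cluster genes carries no weight.

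**Figure D3:**
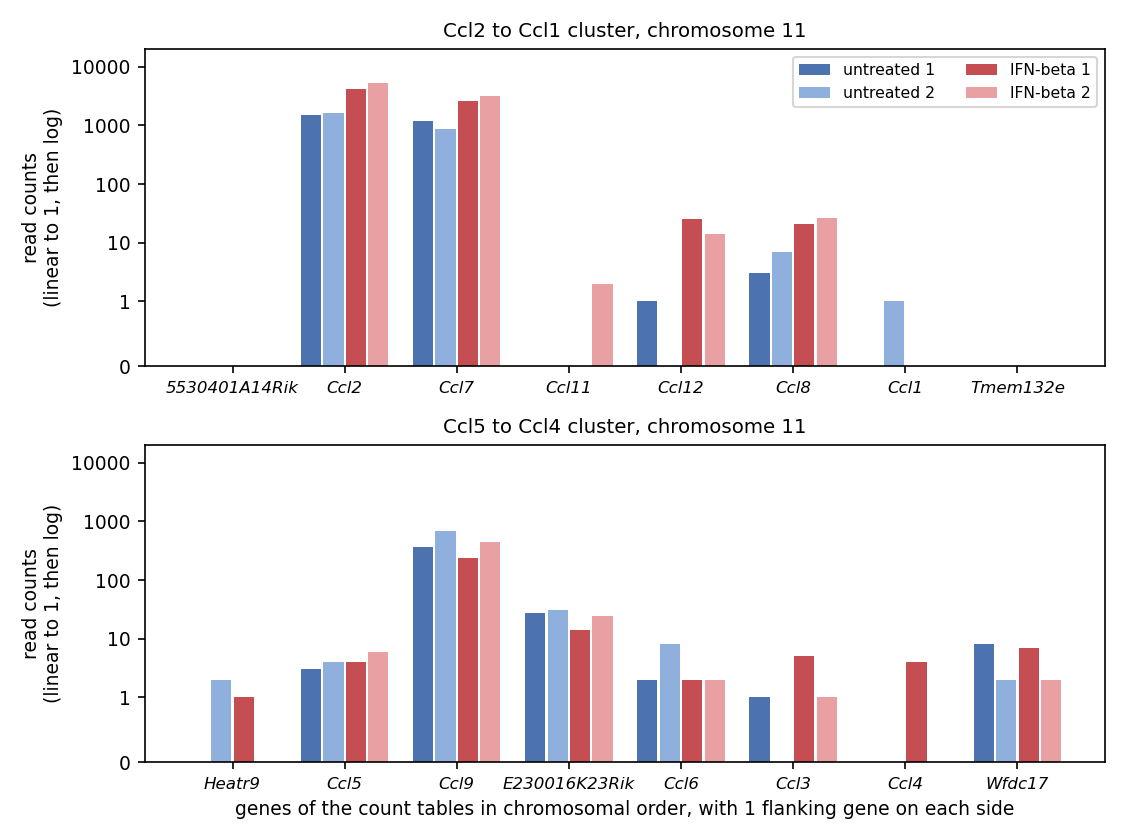
Read counts per gene in the 2 chemokine clusters of chromosome 11, on an axis that is linear to 1 and logarithmic above, with genes in chromosomal order and a flanking gene on each side; blue bars are untreated and red bars IFN-beta libraries, not scaled for depth. In the upper cluster reads rose at Ccl2, Ccl7, Ccl12 and Ccl8 while Ccl11 and Ccl1 held 2 reads or fewer, and in the lower cluster Ccl9 held most reads in every library.

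The second cluster, with Ccl5, Ccl9, Ccl6, Ccl3 and Ccl4, gave no call. Ccl5 (RANTES), a ligand that many cell types make in antiviral responses, had 3 and 4 reads untreated and 4 and 6 reads after IFN-beta, or 0.156 and 0.152 against 0.224 and 0.302 CPM. The treated libraries were slightly above the untreated ones, but the pooled ratio of 1.73 had a 95% exact counting interval of 0.594 to 5.35. Without the count filter its log2 fold change was 0.77 ± 0.95 (edgeR adjusted p = 0.769). No change of Ccl5 was detected, and that interval spans both directions. Ccl9 (MIP-1 gamma), a ligand of Ccr1, was at 19.02 and 26.0 CPM untreated and at 13.6 and 22.7 CPM treated. The groups overlapped, with replicate 1 the lower library in each. Its log2 fold change was -0.31 ± 0.25 (95% interval -0.86 to 0.24; adjusted p = 0.543). The value ran from -0.73 (IFN-beta replicate 2 left out) to 0.0135 (IFN-beta replicate 1 left out). With untreated replicate 1 left out, Ccl9 was called lower (-0.49, adjusted p = 0.0495). Ccl6 had 2 and 8 reads untreated and 2 and 2 treated. Ccl3 (MIP-1 alpha) had 1 and 0 against 5 and 1 reads and Ccl4 (MIP-1 beta) 0 and 0 against 4 and 0. The gene models of Ccl3 and Ccl4 overlap in RefSeq, and Ccl6 overlaps the noncoding E230016K23Rik, so these low counts are uncertain.

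Ccl20 and Ccl25 lie alone on other chromosomes. Ccl20 (LARC), the ligand of Ccr6 and a known NF-kB target, had 7 and 12 reads untreated and 3 and 2 reads after IFN-beta. Both treated libraries lay below both untreated ones, as for 26.8% of all tested genes. The pooled ratio was 0.318 (95% exact counting interval 0.0929 to 0.882). That interval leaves out the spread between libraries, and in the test without the count filter the log2 value of -1.59 ± 0.87 did not pass (edgeR adjusted p = 0.347). Ccl25 (TECK), the thymic and gut ligand of Ccr9, was at 6.70 and 5.65 CPM untreated and at 5.94 and 6.25 CPM treated. The treated libraries fell between the untreated ones. Its log2 fold change of -0.01 ± 0.21 had a 95% interval of -0.48 to 0.45 (adjusted p = 0.980), and its sign turned when untreated replicate 1 (0.13) or IFN-beta replicate 1 (0.0227) was left out. The neighbours of Ccl25, Elavl1 (0.11, adjusted p = 0.740) and Cers4 (0.20, adjusted p = 0.598), were not called either.

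Summed over the 23 CC ligand genes in the tables, ligand reads went from 167.0 and 129 CPM untreated to 408 and 459 CPM after IFN-beta, or from 148 ± 26.6 to 434 ± 36.4 CPM (SD, n = 2), 2.93-fold. Ccl2 and Ccl7 together held 83.3% and 73.7% of these reads untreated (95% exact intervals 81.9 to 84.5 and 72.1 to 75.1) and 94.1% and 92.8% treated (93.6 to 94.7 and 92.2 to 93.3). The share was above both untreated values in both treated libraries, while the untreated values differed from each other beyond counting error. Ccl9 held 11.4% and 20.1% untreated and 3.32% and 4.95% treated, although its own level gave no call. These are shares of reads, not of molecules, since longer transcripts give more reads and no transcript lengths were used. With 2 libraries against 2, an exact two-sided permutation test could not reach 0.05, and none was run on these sums.

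**Figure D4:**
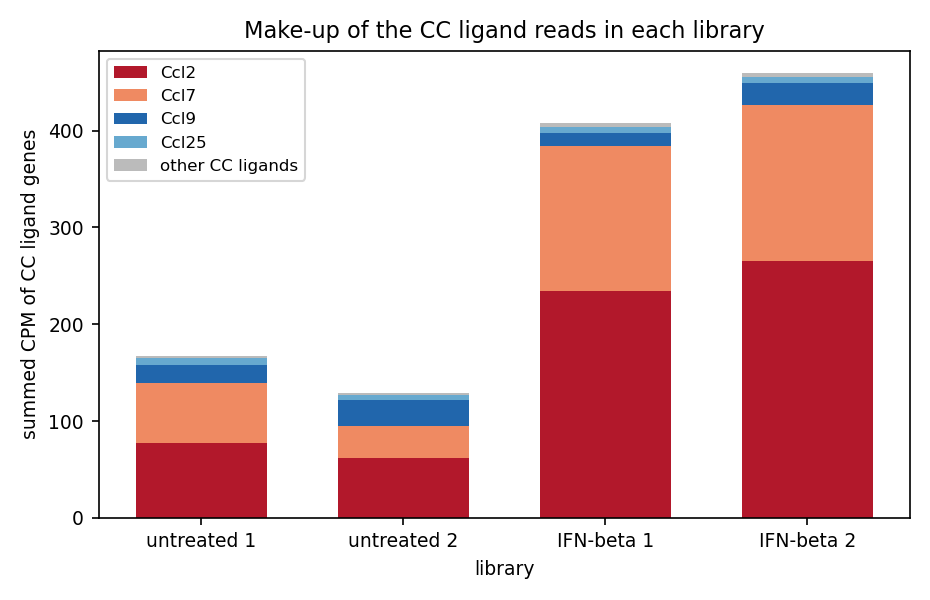
Summed CPM of the CC ligand genes in each library, stacked by gene (linear axis from 0). The columns reach 167.0 and 129 CPM untreated and 408 and 459 CPM after IFN-beta, and Ccl2 and Ccl7 fill most of each column.

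Ccrl2, the single receptor gene in the group, had the largest change of the 9. It had 1 and 0 reads untreated and 115 and 148 reads after IFN-beta, or 0.0520 and 0 against 6.45 and 7.46 CPM. Expression was thus at or near 0 in both untreated libraries and clear in both treated ones. The ratio of pooled, depth-scaled counts was 318 (95% exact interval 56.6 to 12619, counting error only). The fitted log2 fold change was 7.96 ± 0.54 (95% interval 6.75 to 9.16; edgeR adjusted p = 5.3e-06), 40th from the top of all tested genes. That value and its interval depend on the prior count, and with a larger one the value was 5.90 ± 0.40, below that interval. Without untreated replicate 1, which holds the 1 untreated read, it was 10.23, above that interval. It was 6.90 without untreated replicate 2. Of the genes beside Ccrl2 on chromosome 9 neither was called higher, with Ltf, too low to test, at 0 and 0 against 3 and 4 reads and Lrrfip2 at a log2 fold change of 0.03 (adjusted p = 0.948). The promoter of its outermost start is shown because it holds the NF-kB match, in capitals; the other two Ccrl2 windows held no match to any motif searched.
Ccrl2, GRCm38.p6 chr9:111057519-111057768, minus strand: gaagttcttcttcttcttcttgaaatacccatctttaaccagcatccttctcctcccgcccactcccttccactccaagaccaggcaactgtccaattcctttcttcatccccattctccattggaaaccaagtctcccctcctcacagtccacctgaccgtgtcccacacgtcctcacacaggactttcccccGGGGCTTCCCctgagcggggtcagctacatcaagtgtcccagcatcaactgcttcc

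The partners of Ccrl2 were hardly expressed. Rarres2, which encodes its ligand chemerin, had 0 reads in all 4 libraries, which allows up to 0.114 to 0.168 CPM per library (3 counts). The signalling chemerin receptor gene Cmklr1 had 1 and 7 reads untreated and 2 and 1 treated, and Gpr1 6 and 7 against 2 and 15. Among atypical chemokine receptor genes, Ackr3, a scavenger of Cxcl12, was at 6.98 ± 0.861 CPM untreated and rose to 13.6 ± 3.54 CPM (0.97 ± 0.22 on the log2 scale, edgeR adjusted p = 0.0334, higher in both treated libraries). Ackr3 missed the threshold when libraries were scaled by their totals (adjusted p = 0.0622) and when IFN-beta replicate 1 was left out (0.470). Ackr4, which scavenges Ccl19, Ccl21 and Ccl25, had 2 and 4 reads untreated and 2 and 2 treated. Ackr2, the scavenger of inflammatory CC chemokines, had a single read, in IFN-beta replicate 2, and Ackr1 had none. Ackr3 was the 1 tested gene of this list of 7, so Ccrl2 and Ackr3 were the atypical receptor genes with a call.

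The signalling receptors of the CC ligands were near 0 in both conditions. None of the 11 CC receptor genes had enough reads to be tested, 4 had 0 reads in every library and all had fewer than 10 reads in each. Ccr2, through which Ccl2, Ccl7 and Ccl12 act, had 0 and 1 reads untreated and 1 and 0 treated. Ccr1 had 2 and 2 against 2 and 3, Ccr9 had 1 and 1 against 2 and 4, and Ccr6 and Ccr8 had 0 in all libraries. Of 15 further CC ligand genes 8 had 0 reads in every library, among them Ccl19, Ccl22, Ccl24 and Ccl28. Only Ccl17, a ligand of Ccr4, could be tested (10 and 23 reads untreated, 10 and 21 treated; log2 fold change 0.20 ± 0.47, adjusted p = 0.867), so that list gave 0 calls, also by DESeq2, by limma-voom and at an unadjusted p below 0.05. Ccl27a had 16 and 9 reads against 4 and 10. Reads of Ccl21a, Ccl21b, Ccl21c and Ccl27a are uncertain, because near-identical copies exist and reads that fit several places are not counted. The gene model of Ccl27a also overlaps Il11ra1 in RefSeq, and those of Ccl5 and Ccl25 overlap noncoding genes that are not among the genes counted.

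In the list of CXC and other chemokine ligands 2 of 8 tested genes rose and 0 were lower, where 4.73% and 0.495% of all tested genes were. Cxcl9 passed the count filter through its IFN-beta libraries alone. Cxcl11, too low to test, had 0 and 0 reads untreated and 7 and 29 treated. Without the count filter 3 of 15 were higher, where 5.16% of all genes were. The groups of ligands were not tested against each other. Cxcl10, which attracts Cxcr3-bearing T cells, rose by a log2 fold change of 10.80 ± 0.22 (edgeR adjusted p = 1.9e-09). Cxcl9, another Cxcr3 ligand, had 0 reads in both untreated libraries and 14 and 18 treated, at least 12.9-fold higher when 3 reads are assumed for the pair of untreated libraries together (adjusted p = 0.0030). The median log2 fold change of the 8 tested genes was 0.28. Chemokine genes depend on factors that act on their transcription. Of 14 tested interferon and NF-kB factors 5 rose and 0 were lower, with a median log2 fold change of 0.16. The interferon factors Stat2 (5.04) and Irf9 (3.77) were among them, and Irf7 had 3 pooled untreated reads and a ratio of 1401 (95% exact interval 479 to 6797). The NF-kB genes Nfkb1 (0.20), Rela (0.10), Relb (-0.29) and Nfkbia (0.01) were not called; they were picked from that list after their values were seen.

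Chemokine mRNAs are short-lived, and of 7 genes that set mRNA decay or stability 1 was called higher and 0 lower (median 0.38). At an unadjusted p below 0.05 in edgeR, 3 of them were higher and 0 lower. Beside this list and those below, 4.73% of all tested genes were called higher and 0.495% lower. An unadjusted p below 0.05 was found for 2202 of all 12128 tested genes. Zfp36 (tristetraprolin), which binds AU-rich elements and speeds decay, was at 5.06 ± 0.399 CPM untreated and rose to 11.5 ± 3.15 CPM (1.18 ± 0.23 on the log2 scale, edgeR adjusted p = 0.0141). Without IFN-beta replicate 1 Zfp36 was not called (adjusted p = 0.190). Zfp36l2 (0.51, adjusted p = 0.161) and Elavl1, whose product stabilises such mRNAs (0.11), were not called. Secreted chemokines are trimmed by proteases, and 0 of 6 tested protease genes were called by edgeR, by DESeq2 or by limma-voom, with 2 at an unadjusted p below 0.05, both on the higher side. They were Mmp13, with 1 and 6 reads untreated and 14 and 12 treated (log2 fold change 2.14 ± 0.63, adjusted p = 0.0946), and Mmp14 (0.35 ± 0.12, adjusted p = 0.156). Adam10 was at -0.03. Chemokines are held at cell surfaces by heparan sulphate, and 2 of 11 genes of its core proteins and enzymes rose, with 0 lower and a median of 0.22. The core protein gene Sdc3 (syndecan-3) rose from 43.3 ± 11.2 to 89.8 ± 8.89 CPM (1.05 ± 0.18 on the log2 scale, adjusted p = 0.0060) and the sulphotransferase gene Ndst2 from 16.1 ± 1.33 to 28.8 ± 2.20 CPM (0.83 ± 0.16, adjusted p = 0.0110). The Ndst2 call was lost without IFN-beta replicate 1 (adjusted p = 0.113).

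Of 7 markers of endothelial cells, which also release Ccl2, 5 had too few reads to be tested. The 7 markers summed to 1.09 and 1.14 CPM untreated and to 3.31 and 2.02 CPM after IFN-beta, 2 of them were at 0 in all libraries (Tie1 and Emcn), and Pecam1 had 1 and 2 against 0 and 1 reads. Tek had 5 and 2 reads untreated and 0 and 0 treated, and Vwf had 3 and 2 against 3 and 0. Of 2 tested, Cdh5 rose (log2 fold change 2.68 ± 0.53, edgeR adjusted p = 0.0140) and Kdr did not pass (1.18, adjusted p = 0.177). Both were higher in both treated libraries, as 23.9% of all tested genes were, and both had an unadjusted p below 0.05. Cdh5 had 2 and 6 reads untreated and 24 and 19 treated, so it passed the count filter through its IFN-beta libraries alone. Cdh5 missed the threshold without IFN-beta replicate 1 (adjusted p = 0.0777). Their part in the results above was not tested.

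For each called gene, the 2 tested genes with the nearest profile over the 4 libraries were found by the Euclidean distance of centred log2 CPM values. Nearest to Ccl2 were Psme2 (distance 0.0252 log2 units) and Pnpt1 (0.103), with Psme2 at 30.8 and 24.7 CPM untreated and 92.7 and 103 CPM treated. Nearest to Ccl7 were Nudt13 (0.130) and A930015D03Rik (0.142), and to Ccl8 Btc (0.187) and C3ar1 (0.198). For Ccl12 the nearest gene, Clic5, was farther away at 0.491. Ccrl2 was closest to Phf11b (0.0783), which was at 0.0520 and 0 CPM untreated and at 6.89 and 7.66 CPM treated, and to Slfn8 (0.260). With 4 libraries in 2 groups such distances are set mostly by the size of the change between groups and describe these libraries only.

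**Figure D5:**
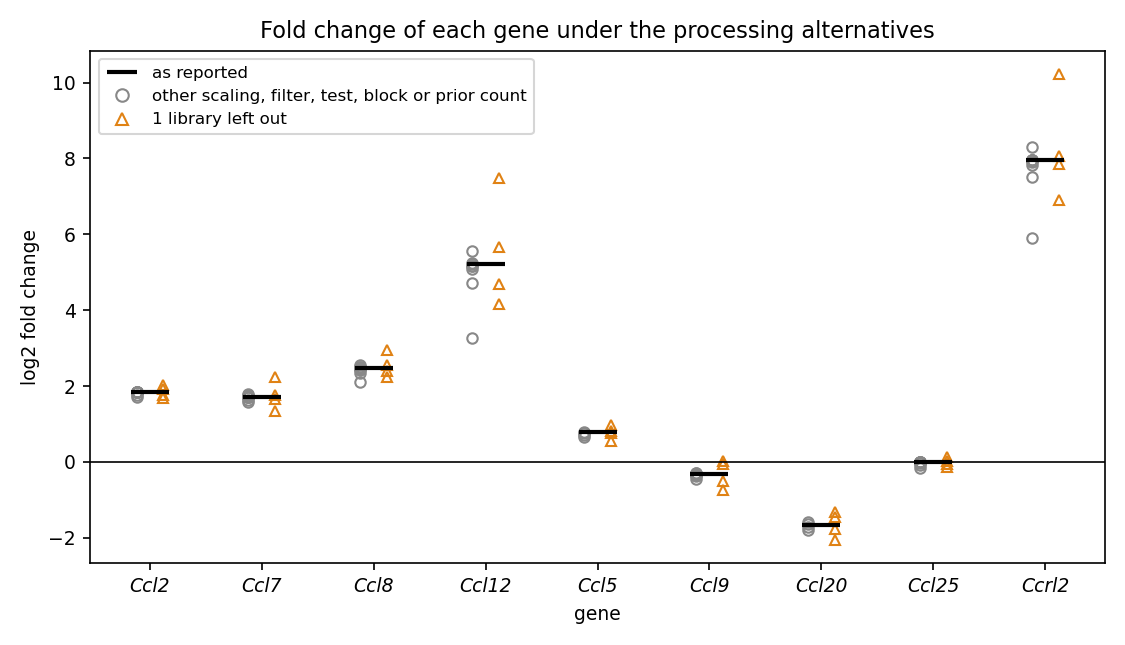
Log2 fold change of each gene as reported (black bar), under other scalings, filters, tests, the replicate term or a larger prior count (grey circles) and with 1 library left out (orange triangles). Ccl2, Ccl7, Ccl8, Ccl12 and Ccrl2 stay above 0 in all settings shown, Ccl9 and Ccl25 lie on both sides of 0, and Ccrl2 spans 5.90 to 10.23.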

How the data were processed

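The authors deposited a table of raw read counts by gene symbol for each library, with replicates kept apart. Per the submitters' processing notes TopHat2 2.0.13, HTSeq 0.7.2 and mm9 were used; the annotation and the strand setting are not given in the sources used here, so reads of overlapping genes cannot be separated. The 5 summary lines that name no gene (57.3% to 61.3% of records) were left out.

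Counts were tested with edgeR 4.0.16 (R 4.3.3; quasi-likelihood F test, TMM, group as the only term, default filter with minimum count 10 and minimum total count 15), with p-values adjusted over all tested genes. SEs are the log2 fold change divided by the square root of F. CPM used TMM-adjusted library sizes. Ratios of pooled counts carry exact 95% intervals; these and floors cover counting error only. The procedure was tested on simulated data, with changes placed only in genes with more untreated reads than Ccl8, Ccl12 or Ccrl2 had. That test therefore does not cover genes with as few untreated reads as those. Alternatives were other scalings and filters, DESeq2 1.42.0, limma-voom (limma 3.58.1), a replicate block, a prior count of 2 and each library left out. All 9 genes are named; of other lists, up to 4 called genes by p, or, where fewer than 2 were called, up to 2 tested genes with the highest level, and in the 2 clusters every ligand. Other genes named by their reads (receptors, untested ligands, markers) and Mmp13 were chosen after their values were seen. Replicates differed by more than sampling noise (chi-square per gene 34.2 untreated and 12.1 with IFN-beta). A few genes that these rules name are not reported here. Members and lists were chosen with earlier results of these data known. The labels do not say whether the replicate numbers pair the libraries. The correlation of deviations was -0.03, and with 2 libraries per group it cannot settle this.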

Additional observations from a re-analysis of the deposited data

How the results depend on the processing

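The calls of Ccl2, Ccl7, Ccl8, Ccl12 and Ccrl2 held in every alternative that tested them, with highest adjusted p-values of 9.1e-05, 0.0052, 0.0482, 0.0138 and 2.5e-05; with a CPM of 1 in 2 libraries Ccl12 was not tested and 4 members were higher. With a library left out, the log2 value of Ccl9 ran from -0.73 to 0.0135 and that of Ccl25 from -0.14 to 0.13, above 0 without IFN-beta replicate 1 for both (0.0135 and 0.0227) and without untreated replicate 1 for Ccl25. With a library left out, members called lower ranged from 0 to 1, the 1 being Ccl9 without untreated replicate 1 (-0.49, adjusted p = 0.0495). With the replicate block 5 members were higher and 0 lower; the block gave 155 lower genes over the whole table and 1 higher protease gene, and changed no other call count here by more than 1.5 times.

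Over all genes, 574 were higher and 60 lower. Lower genes numbered 350 with total library size, 128 with upper quartile scaling, 381 without a count filter and 103 by DESeq2, and higher genes 863 without a count filter. Leaving out a library gave 470 to 1885 higher and 24 to 1728 lower genes; in those fits 1 group has a single library, assumed to vary like the other group. Under total library size the median over all tested genes was -0.16, against -0.02 on the log2 scale. In that setting Ackr3 had no call, while Ccrl2 kept its call. The atypical receptor list counted in this section is the list of 7 genes with Ackr3, which leaves out Ccrl2. The stricter filter left 1 CXC ligand higher, and no count filter gave 2 decay factors and 1 protease higher. With a library left out, higher calls ranged from 0 to 1 for atypical receptors, 1 to 4 for CXC ligands (0 to 1 lower), 0 to 5 for decay factors, 0 to 3 for proteases and 1 to 6 for heparan sulphate genes. Ccl5, Ccl20 and the CC receptors had too few reads to be tested with the default filter.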
